A study of Homo sapiens with 3 samples.

Results

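Epithelial cells hold together through adherens junctions, tight junctions and desmosomes, and they keep an apical and a basal side through polarity complexes. The 49 genes described here encode these structures: cadherins and catenins, claudins and other tight junction proteins, the Crumbs, Par and Lgl polarity proteins, desmosomal proteins, keratins and vimentin, with the surface proteins ST14 and CDCP1 and a pair of connexins. They were taken from a given list of symbols and matched to Ensembl identifiers, and all 49 were found among the 22827 genes of the table. RNA-seq was done on 3 libraries, all from cells that the labels call Hep3B, a line from human liver cancer. One library came from USP39-KO cells, one from SIRT7-KO cells and one from control cells. The labels do not say how either gene was knocked out or whether a library came from 1 clone, and they name no other allele or agent.

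In an adherens junction, a classical cadherin binds its like on the next cell and is tied to actin through p120, beta and alpha catenins. Tight junctions seal the space above it with claudins and occludin, held by ZO scaffold proteins. Desmosomes link desmosomal cadherins, through plakophilins, plakoglobin and desmoplakin, to keratin filaments. Loss of E-cadherin, claudins and Crumbs proteins with a rise of N-cadherin and vimentin is the textbook pattern of epithelial-mesenchymal transition, in which SNAI1 and related repressors bind E-box sequences of epithelial promoters.

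Counts summed to 16630636 in USP39-KO, 16151522 in SIRT7-KO and 19427940 in the control. Each group had a single library, so differences have no replicate check and are given without tests or p-values. Each log2 ratio compares 2 libraries after TMM scaling, and each bracketed range after it is the exact 95% interval of the 2 counts, which covers counting error only. Higher and lower follow a size rule throughout: the ratio reached 2-fold and its interval did not include 0. The rule was applied to genes that had 10 or more reads in some library. Of the knocked-out genes, USP39 had 1066, 1511 and 1829 reads in USP39-KO, SIRT7-KO and the control (log2 ratio in USP39-KO -0.54, -0.65 to -0.43). SIRT7 had 808, 608 and 984 reads in the same order (log2 ratio in SIRT7-KO -0.44, -0.59 to -0.30). Each was lowest in its own library, and neither passed the size rule.

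The label of a liver line was set against hepatocyte markers. Of 11 such markers, 7 had no read in any library, albumin and alpha-fetoprotein among them, and the 11 together summed to 46, 22 and 127 reads in USP39-KO, SIRT7-KO and the control. Their most abundant member, the hepatocyte and epithelial transcription factor HNF4A, had 29, 7 and 113 reads and was lower in both knockouts (log2 ratios -1.71, -2.36 to -1.12, and -3.68, -5.11 to -2.67). General epithelial markers were mixed. KRT8 was abundant, and ESRP2 had 1096, 1281 and 1643 reads in USP39-KO, SIRT7-KO and the control. KRT19, ESRP1 and GRHL2 were at 0 in all libraries. Markers of endothelial cells and leukocytes had few reads, while fibroblast markers had more in sum than hepatocyte markers. The 6 endothelial markers summed to 17, 21 and 25 reads and the 6 leukocyte markers to 63, 78 and 74 reads in USP39-KO, SIRT7-KO and the control, with KDR and PTPRC at 0. The 8 fibroblast markers summed to 2297, 1868 and 2296 reads, most of them of COL1A1, with COL1A2 at 0. PDGFRB, also a fibroblast marker, had 217, 326 and 301 reads in USP39-KO, SIRT7-KO and the control. The part of any of these in the results below was not tested.

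A listed 0 is not in itself a silent gene in this table, since 6 of 80 ribosomal protein genes also had no read in any library. Among the 49 members, KRT19, CLDN3, CLDN4 and GJA1 had no read in any library. OCLN, MARVELD2, CGNL1, PKP1 and GJB2 had reads but under 10 in every library, and they were counted in no comparison. That left 40 members, of which 32 had at least 100 reads in 1 or more libraries. Together the 49 genes took 0.621% of all counts in USP39-KO, 0.67% in SIRT7-KO and 0.714% in the control.

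By the size rule, USP39-KO had 0 of the 40 members higher and 3 lower (DSC3, PKP2 and CDCP1), against 1.49% and 3.37% of all 12726 genes kept. SIRT7-KO had 1 member higher (TJP3) and 7 lower (CDH1, EPCAM, CLDN1, CRB3, PATJ, PKP2 and KRT17), or 2.5% and 17.5% of the 40, against 3.02% and 4.05% of all genes. The 3 members lower in USP39-KO were 7.5% of the 40, a count of only 3 genes. The list, and the further lists below, were drawn up with earlier results of these data known, so these shares test no excess. Median log2 ratios were -0.12 in USP39-KO and -0.01 in SIRT7-KO over the 40 members, against 0.00 and -0.01 over all genes kept. Most members were near their control level, though in both knockouts a smaller share of them than of all genes. Within 1.5-fold lay 32 of 40 in USP39-KO and 28 of 40 in SIRT7-KO, where 86.3% and 81.0% of all genes did. Both knockouts were set against the same control library, so their ratios are given side by side and are not independent.

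**Figure D1:**
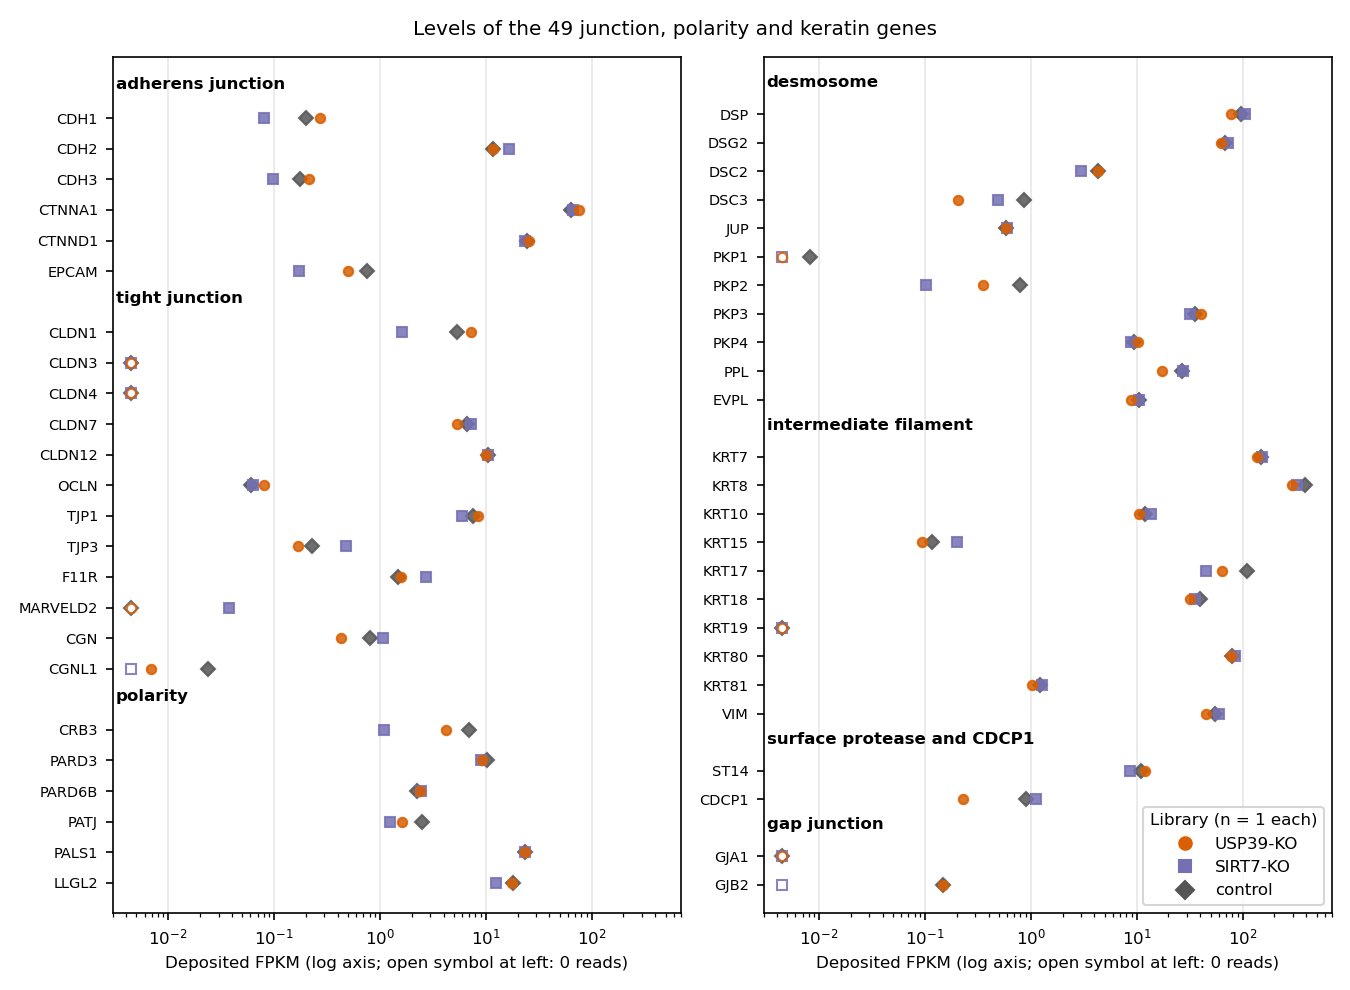
Deposited FPKM of the 49 genes in each library on a log axis, grouped by structure, with 1 symbol per library and open symbols at the left edge for 0 reads. KRT8 reached 293 to 388 FPKM, while CDH1, CDH3, OCLN and PKP2 stayed under 1 FPKM in all 3 libraries.

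**Figure D2:**
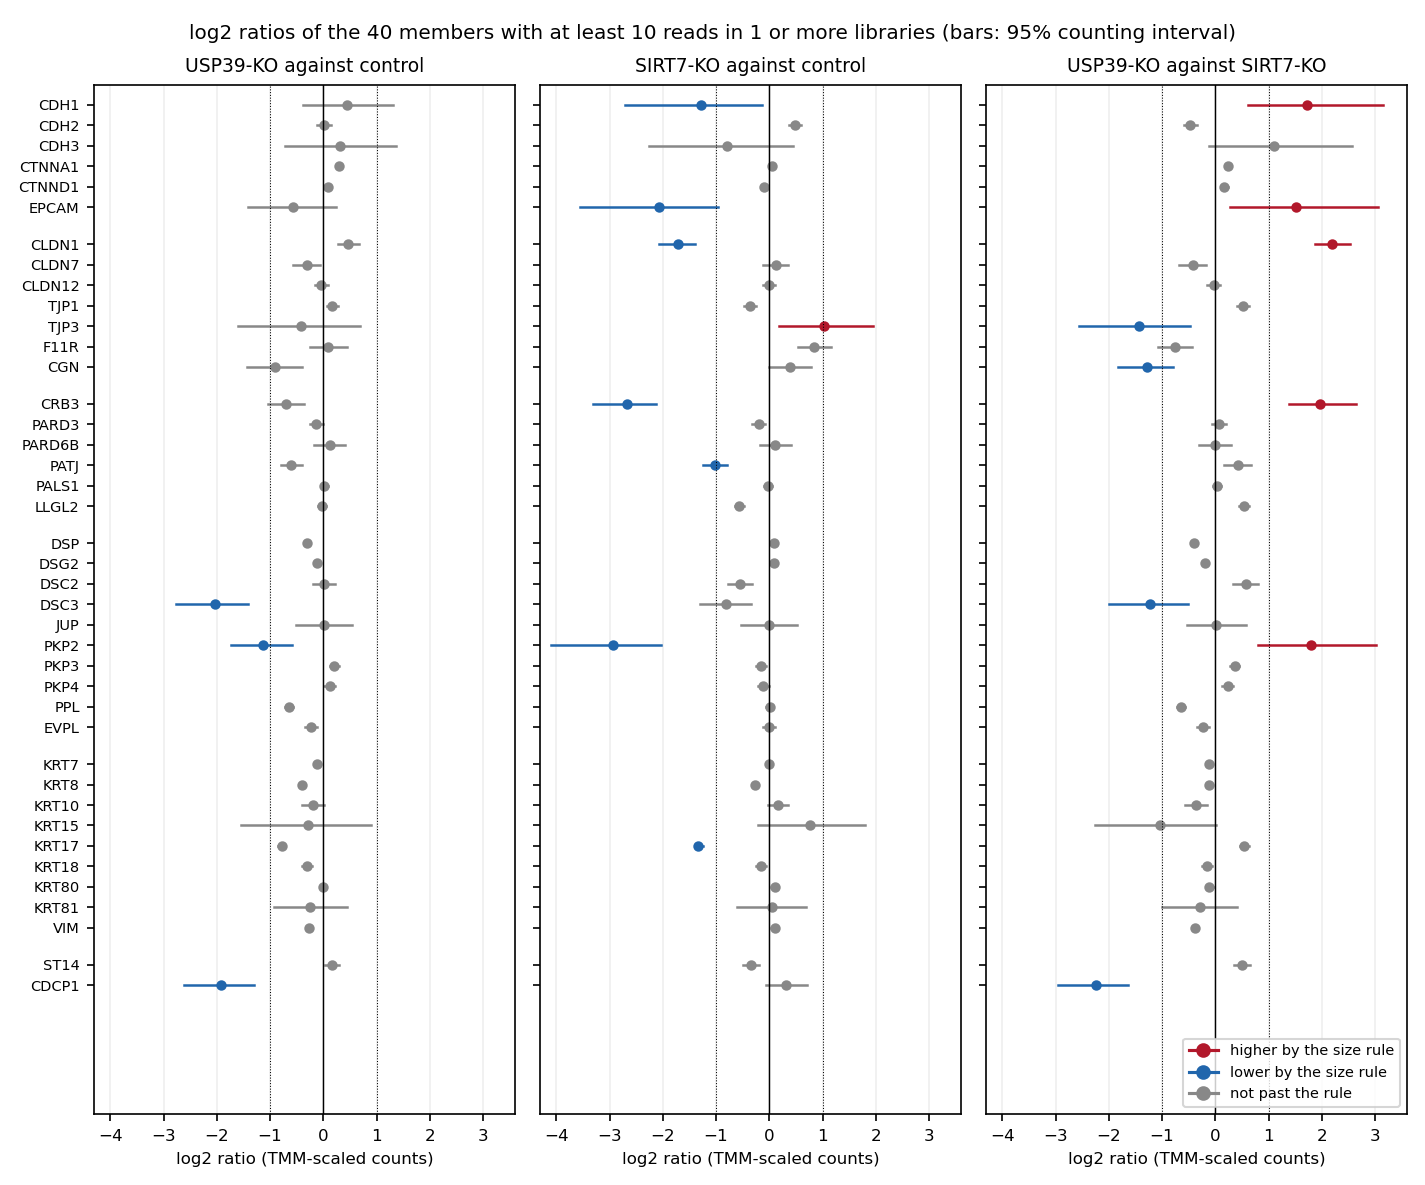
The log2 ratio and 95% counting interval of the 40 members with at least 10 reads, in USP39-KO against control, SIRT7-KO against control and USP39-KO against SIRT7-KO. Most points lie between the dotted lines at 2-fold, and the members past the size rule are coloured.

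Among members with at least 100 reads in a library, the lowest log2 ratio in either knockout was that of CRB3, a polarity gene, in SIRT7-KO. CRB3 encodes the small Crumbs protein of the apical membrane, which binds the scaffold PALS1, which in turn binds PATJ. Promoter windows of CRB3 and PATJ, both lower in SIRT7-KO, are printed here beside those of a claudin that was lower there (CLDN1) and one that was not (CLDN7). They are shown with the E-box CAGGTG, a motif that the repressor SNAI1 binds. Each runs from 250 bases before to 50 bases after a start site in RefSeq (GRCh38.p14), 5′ to 3′ on the gene's strand, with CAGGTG and its reverse complement CACCTG in capitals.
CRB3 (chr19:6464021-6464320, plus strand): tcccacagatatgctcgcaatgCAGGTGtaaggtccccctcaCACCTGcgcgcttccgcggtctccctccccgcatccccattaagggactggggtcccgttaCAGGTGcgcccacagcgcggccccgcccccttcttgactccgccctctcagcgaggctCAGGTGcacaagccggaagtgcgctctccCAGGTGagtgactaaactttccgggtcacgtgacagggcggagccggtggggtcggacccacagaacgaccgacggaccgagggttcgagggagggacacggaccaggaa
PATJ (chr1:61742230-61742529, plus strand): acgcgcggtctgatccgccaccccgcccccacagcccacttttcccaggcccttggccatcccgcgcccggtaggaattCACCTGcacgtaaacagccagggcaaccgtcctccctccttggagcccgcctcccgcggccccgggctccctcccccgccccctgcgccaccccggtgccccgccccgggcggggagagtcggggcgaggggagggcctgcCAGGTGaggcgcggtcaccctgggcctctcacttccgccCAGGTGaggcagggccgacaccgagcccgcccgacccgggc
CLDN1 (chr3:190322397-190322696, minus strand): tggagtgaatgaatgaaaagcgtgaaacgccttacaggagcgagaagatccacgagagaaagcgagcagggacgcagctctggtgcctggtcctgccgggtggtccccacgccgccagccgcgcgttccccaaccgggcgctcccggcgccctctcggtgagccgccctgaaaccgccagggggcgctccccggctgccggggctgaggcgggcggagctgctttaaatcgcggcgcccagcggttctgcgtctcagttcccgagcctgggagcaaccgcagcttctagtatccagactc
CLDN7 (chr17:7262429-7262728, minus strand): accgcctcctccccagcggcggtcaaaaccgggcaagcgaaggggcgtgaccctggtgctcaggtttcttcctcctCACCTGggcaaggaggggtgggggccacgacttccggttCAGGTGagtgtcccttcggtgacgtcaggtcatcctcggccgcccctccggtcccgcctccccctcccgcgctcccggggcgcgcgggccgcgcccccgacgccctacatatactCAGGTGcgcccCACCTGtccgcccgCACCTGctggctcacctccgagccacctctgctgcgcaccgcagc

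The motif, searched on both strands, had 5 matches in the CRB3 window, 3 in that of PATJ, 0 in that of CLDN1 and 5 in this CLDN7 window. A second CLDN7 window held 0. No match overlapped another. Over the whole table, 20.6% of 35116 windows held at least 1 match, 0.635% at least 3 and 0.094% at least 5. RefSeq windows were at hand for 29 of the 49 members, 42 windows in all, and 14 of the 42 (33.3%) held at least 1. Of the 7 members lower in SIRT7-KO, CDH1, EPCAM, PKP2 and KRT17 were without a window. The 4 genes were picked for how they differed in SIRT7-KO, so their matches test nothing. A match is a run of letters and not a measured binding site.

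CRB3 (ENSG00000130545; GENCODE 29, GRCh38, chromosome 19, 6463777 to 6467221, plus strand) had 112 reads in USP39-KO and 28 in SIRT7-KO, against 215 in the control. It was lowest in SIRT7-KO, where it was 6.36-fold lower (log2 ratio -2.67, -3.31 to -2.12). In USP39-KO its log2 ratio was -0.70 (-1.04 to -0.37), which did not pass the rule. Over 1427 bases CRB3 overlaps SLC25A23 on the opposite strand, and the sources used here do not say whether counting used strand. SLC25A23 had log2 ratios of -0.15 and -0.35 in USP39-KO and SIRT7-KO, both smaller in size than those of CRB3. DENND1C, which overlaps CRB3 by 15 bases, also on the opposite strand, had 59 and 21 reads against 146 in the control. Its log2 ratios of -1.06 (-1.53 to -0.62) and -2.52 (-3.28 to -1.88) were lower by the rule in both knockouts and near those of CRB3. The part of either neighbour in the CRB3 counts was not tested.

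PATJ, the multi-PDZ scaffold of the same complex, had 311 reads in USP39-KO, 231 in SIRT7-KO and 556 in the control. It stood just past the 2-fold line in SIRT7-KO (log2 ratio -1.01, -1.24 to -0.79) and not in USP39-KO (-0.60, -0.80 to -0.40); scaled to library totals, it came just under 2-fold in SIRT7-KO and no longer passed. Their partner PALS1 had 3398, 3296 and 3973 reads, with log2 ratios of 0.01 (-0.05 to 0.08) in USP39-KO and -0.02 (-0.09 to 0.05) in SIRT7-KO. On the per-length FPKM scale PALS1 stood at 23.4, 23.3 and 23.4 in USP39-KO, SIRT7-KO and the control. CRB3 stood at 4.23, 1.09 and 6.95 FPKM. The level of CRB3 relative to that of PALS1 was therefore 0.181 in USP39-KO and 0.0467 in SIRT7-KO, against 0.297 in the control.

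The other polarity members did not pass the rule. PARD3 and PARD6B, scaffolds of the Par complex, had log2 ratios of -0.13 and 0.12 in USP39-KO and -0.20 and 0.11 in SIRT7-KO. LLGL2, the basolateral Lgl protein, had -0.02 in USP39-KO and -0.56 (-0.65 to -0.47) in SIRT7-KO, with 2342, 1603 and 2805 reads in USP39-KO, SIRT7-KO and the control. Among 16 measured polarity genes outside the list, none was higher in either knockout. In USP39-KO 2 were lower and in SIRT7-KO 3 were, against 3.37% and 4.05% of all genes kept. PRKCZ, an atypical protein kinase C of the Par complex, had 619 and 278 reads in USP39-KO and SIRT7-KO, against 700 in the control. It was lower in SIRT7-KO (log2 ratio -1.08, -1.29 to -0.88) and had 0.06 in USP39-KO. The more abundant atypical kinase of that complex, PRKCI, had 0.04 and 0.23. CRB2, a paralogue of CRB3 named after its values were seen, had 30 and 18 reads against 72 in the control and was lower in both knockouts (log2 ratios -1.01 and -1.72). PARD6A in USP39-KO and CRB1 in SIRT7-KO, also named after the fact, made up the rest of these counts.

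Among tight junction members, CLDN1 was the one lower by the rule in SIRT7-KO. Claudin-1, CLDN1 (ENSG00000163347; chromosome 3, 190305701 to 190322475, minus strand), had 445 reads in USP39-KO and 96 in SIRT7-KO, against 379 in the control. It was 3.31-fold lower in SIRT7-KO (log2 ratio -1.72, -2.07 to -1.40), while USP39-KO lay above the control (0.47, 0.27 to 0.67) without passing the rule. CLDN12 and CLDN7 had log2 ratios of -0.01 and 0.12 in SIRT7-KO and -0.04 and -0.31 in USP39-KO. CLDN12 was the most abundant claudin of the list in every library, at 9.98, 10.4 and 10.4 FPKM. The order below it differed: CLDN1 held 32.3% of the claudin FPKM of the list in USP39-KO, 8.39% in SIRT7-KO and 23.8% in the control, and CLDN7 held 23.6%, 37.8% and 29.8%.

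Scaffold and accessory proteins of the tight junction went several ways. TJP3, which encodes the scaffold ZO-3, was the only member higher in SIRT7-KO, on few reads: 12 in USP39-KO, 33 in SIRT7-KO and 19 in the control. Its log2 ratio there was 1.03 (0.19 to 1.94), and with a prior of 2 counts it no longer passed (0.97). TJP1, the gene of ZO-1, had 1599 and 1102 reads against 1679 in the control (log2 ratios 0.17 and -0.36). F11R, the junctional adhesion molecule JAM-A, had 133 and 222 reads against 147 (0.09, and 0.84 with an interval of 0.54 to 1.16 in SIRT7-KO). Cingulin, CGN, which binds ZO proteins, had 47, 115 and 104 reads, with -0.90 (-1.44 to -0.40) in USP39-KO and 0.39 in SIRT7-KO. OCLN, the gene of occludin, had 9, 7 and 8 reads, MARVELD2 had 0, 3 and 0, and CGNL1 had 1, 0 and 4. Over all genes kept, 3.37% were lower in USP39-KO, and 3.02% were higher and 4.05% lower in SIRT7-KO. Of 13 further tight junction genes measured, 1 was lower in USP39-KO, and 1 was higher and 2 were lower in SIRT7-KO, none with 100 reads in any library. Named after their values were seen, these were CLDN20 (2, 2 and 13 reads in USP39-KO, SIRT7-KO and the control, lower in both), JAM3 (29, 14 and 38, lower in SIRT7-KO) and CLDN9 (7, 23 and 9, higher in SIRT7-KO). The most abundant, the angiomotin-like gene AMOTL2, had 0.24 and -0.38.

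N-cadherin RNA stood far above E-cadherin RNA in all 3 libraries. CDH2, the N-cadherin gene, stood at 11.8 FPKM in USP39-KO, 16.7 in SIRT7-KO and 11.8 in the control. CDH1, the E-cadherin gene, stood at 0.274, 0.0805 and 0.201 FPKM, so the level of CDH2 exceeded that of CDH1 by 43.1, 208 and 58.8 times. CDH1 (ENSG00000039068; chromosome 16, 68737225 to 68835548, plus strand) had 28 reads in USP39-KO and 8 in SIRT7-KO, against 24 in the control. That made it lower in SIRT7-KO, with a wide interval (log2 ratio -1.29, -2.70 to -0.13), and not in USP39-KO (0.45, -0.38 to 1.31). CDH2 had 971 and 1337 reads against 1135, with log2 ratios of 0.01 and 0.49 (0.37 to 0.60), neither past the rule. CDH3, the P-cadherin gene, had 18, 8 and 17 reads, and its intervals included 0 in both knockouts.

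EPCAM, an epithelial surface glycoprotein used as a carcinoma marker, had 21 reads in USP39-KO and 7 in SIRT7-KO, against 37 in the control. It was lower in SIRT7-KO (log2 ratio -2.08, -3.56 to -0.97), while the USP39-KO interval included 0 (-0.57, -1.42 to 0.23). The catenins differed little. Alpha-catenin, CTNNA1, the most abundant member of its group, had 11273 and 9453 reads against 10885 (log2 ratios 0.29, 0.25 to 0.33, and 0.05). The p120 catenin CTNND1 had 0.08 and -0.09. Of 13 further adherens junction genes measured, including beta-catenin CTNNB1 (log2 ratios 0.00 and 0.08), none passed the rule in either knockout. Of all genes kept, 1.49% were higher and 3.37% lower in USP39-KO, and 3.02% and 4.05% in SIRT7-KO. A count of 0 among 13 genes lies near those shares. The most abundant of them, vinculin VCL, had -0.07 and -0.09.

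Desmosome members included PKP2, which passed the rule in both knockouts against their shared control, and DSC3, which passed it in USP39-KO. PKP2 (ENSG00000057294; chromosome 12, 32790745 to 32896840, minus strand) encodes plakophilin-2, which links desmosomal cadherins to desmoplakin. It had 36 reads in USP39-KO and 10 in SIRT7-KO, against 94 in the control, or 2.20-fold lower in USP39-KO (log2 ratio -1.14, -1.74 to -0.58) and 7.59-fold lower in SIRT7-KO (-2.93, -4.09 to -2.04). PKP2 was a minor plakophilin in each library. PKP3 stood at 40.5, 32.1 and 35.3 FPKM and PKP4 at 10.2, 8.92 and 9.51 FPKM in USP39-KO, SIRT7-KO and the control, against 0.357, 0.102 and 0.797 FPKM for PKP2. Neither PKP3 (log2 ratios 0.21 and -0.15) nor PKP4 (0.12 and -0.11) passed the rule, and PKP1 had a single read, in the control.

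DSC3 (ENSG00000134762; chromosome 18, 30990008 to 31042815, minus strand) encodes desmocollin-3, a desmosomal cadherin best known from stratified epithelia. It had 24 reads in USP39-KO and 56 in SIRT7-KO, against 118 in the control. USP39-KO was 4.11-fold lower (log2 ratio -2.04, -2.76 to -1.42), and SIRT7-KO had -0.82 (-1.31 to -0.35), short of the rule. DSC2 had log2 ratios of 0.02 and -0.55, and DSG2 had -0.11 and 0.09. DSG2 was the main desmosomal cadherin, with 93.3%, 95.5% and 92.9% of the FPKM of DSG2, DSC2 and DSC3 together in USP39-KO, SIRT7-KO and the control.

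The plakins and plakoglobin lay close to the control in SIRT7-KO, unlike PKP2. DSP, desmoplakin, had 13035 and 17083 reads against 19129 in the control, with log2 ratios of -0.31 (-0.35 to -0.28) in USP39-KO and 0.09 in SIRT7-KO. PPL, periplakin, had 2204, 3410 and 4043 reads, with -0.64 (-0.71 to -0.56) in USP39-KO and 0.01 in SIRT7-KO. EVPL, envoplakin, had -0.23 and 0.00. JUP, plakoglobin, had 58, 57 and 68 reads and log2 ratios of 0.01 and 0.00. None of these 4 passed the rule, and the 3 plakins with negative ratios in USP39-KO had intervals excluding 0. Of 6 further desmosome and hemidesmosome genes measured, only ITGB4 was lower in USP39-KO, where 3.37% of all genes kept were. ITGB4 encodes the hemidesmosomal integrin subunit beta-4 and had 471 and 997 reads against 1589 (log2 ratios -1.51, -1.67 to -1.37, and -0.42). The most abundant of the 6, PERP, had -0.01 and 0.22.

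**Figure D3:**
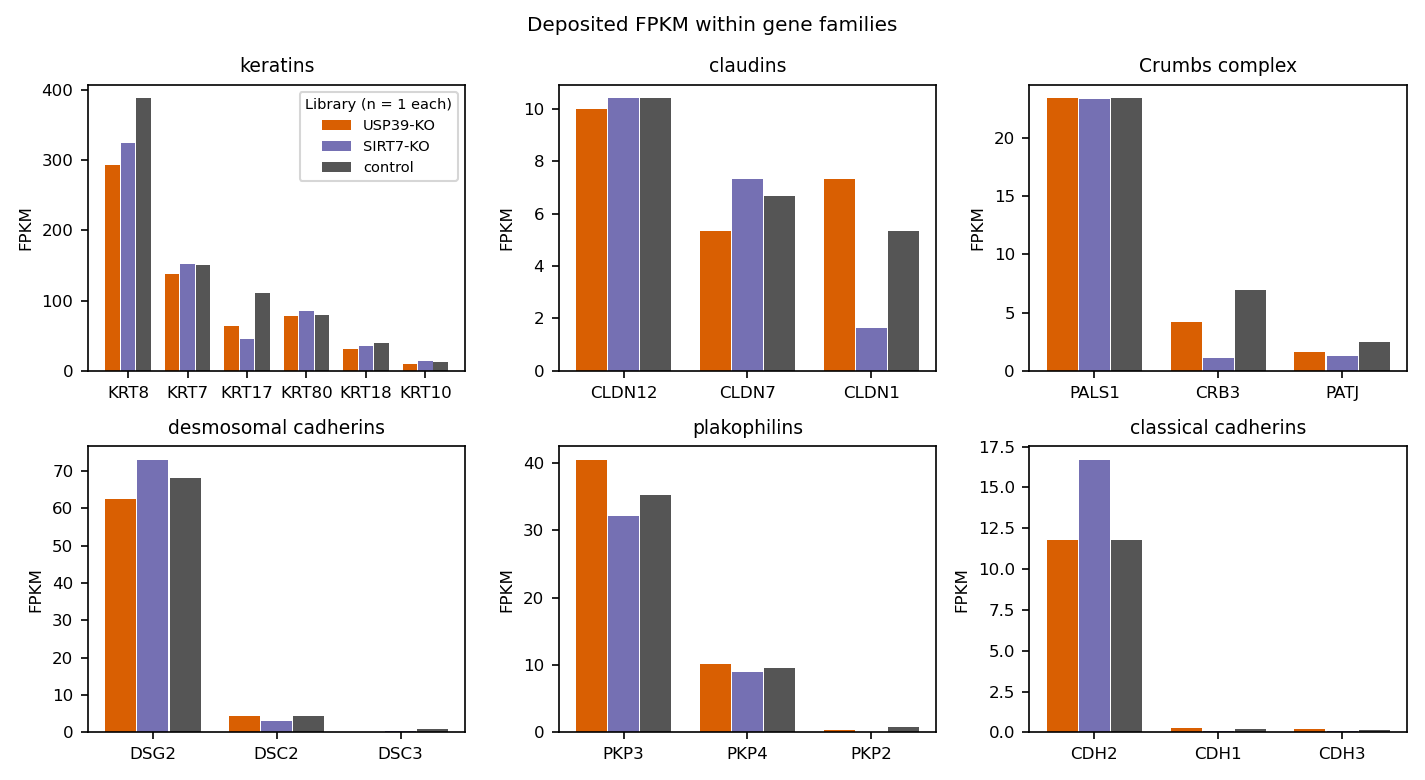
Deposited FPKM of members within 6 gene families, with bars for USP39-KO, SIRT7-KO and control (1 library each) on linear axes that start at 0. PALS1, CLDN12 and DSG2 stand at similar heights in all libraries, while CRB3, CLDN1 and KRT17 differ.

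Among the keratins, KRT17 was the one past the rule. Simple epithelia are built on KRT8 with KRT18, and KRT7 marks many ductal epithelia, while KRT17 is a stress-associated keratin of skin appendages and many carcinomas. KRT17 (ENSG00000128422; chromosome 17, 41619441 to 41624842, minus strand) had 2698 reads in USP39-KO and 1835 in SIRT7-KO, against 5483 in the control. It was lower in SIRT7-KO (2.51-fold, log2 ratio -1.33, -1.40 to -1.25), and USP39-KO had -0.78 (-0.85 to -0.72), short of the rule. KRT17 held 10.4% of the keratin FPKM of the list in USP39-KO and 6.82% in SIRT7-KO, against 14.2% in the control. GENCODE 29 names 8 pseudogenes of KRT17, and the sources used here do not say how reads shared with copies were placed. KRT16, which lies beside KRT17 and resembles it, had 56 and 105 reads against 111.

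The other measured keratins did not pass the rule. KRT8, the most abundant member, had 24379 and 26167 reads against 37684, with log2 ratios of -0.39 (-0.41 to -0.37) and -0.27 (-0.30 to -0.25). Its partner KRT18 had 1690 and 1861 against 2462 reads (-0.30 and -0.15). KRT8 exceeded KRT18 by 9.27, 9.04 and 9.84 times in FPKM in USP39-KO, SIRT7-KO and the control, and GENCODE 29 names 50 pseudogenes of KRT8 and 67 of KRT18, so these levels are uncertain. KRT7 had -0.12 and -0.01 and KRT80 -0.01 and 0.10. The remaining keratins, KRT10, KRT15 and KRT81, ranged from 11 to 500 reads, and their intervals against the control all included 0.

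Vimentin, VIM, the intermediate filament of mesenchymal cells, had 3727 reads in USP39-KO and 4815 in SIRT7-KO, against 5316 in the control. Its log2 ratios were -0.27 (-0.33 to -0.21) and 0.11 (0.05 to 0.17). All 9 measured intermediate filament members had a negative log2 ratio in USP39-KO, with a median of -0.27 and single genes from -0.78 to -0.01. The intervals of KRT10, KRT15, KRT80 and KRT81 there included 0. In SIRT7-KO 5 of 9 had a positive log2 ratio (median 0.05). The median over all genes kept was 0.00 in USP39-KO and -0.01 in SIRT7-KO. None of the 9 passed the rule in USP39-KO, where 1.49% of all genes kept were higher and 3.37% lower. Of 9 intermediate filament genes outside the list, 1 passed it in USP39-KO and none in SIRT7-KO. In SIRT7-KO 3.02% of all genes kept were higher and 4.05% lower. The gene that passed was INA, the neuronal filament protein alpha-internexin. It had 162 and 557 reads against 739 in the control (log2 ratios -1.95, -2.20 to -1.70, and -0.16). The most abundant of those outside the list, the lamin gene LMNA, had -0.05 and 0.36.

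CDCP1 and ST14 encode surface proteins of epithelial cells. CDCP1 (ENSG00000163814; chromosome 3, 45082278 to 45146422, minus strand), a transmembrane substrate of Src-family kinases, had 25 reads in USP39-KO and 119 in SIRT7-KO, against 113 in the control. It was 3.78-fold lower in USP39-KO (log2 ratio -1.92, -2.62 to -1.30) and had 0.32 (-0.06 to 0.71) in SIRT7-KO. ST14, the gene of the serine protease matriptase, had 873 and 609 reads against 917 (0.17 and -0.34). Of 4 measured protease and inhibitor partners of ST14, none was higher in either knockout. In USP39-KO 1 was lower and in SIRT7-KO 2 were, against 3.37% and 4.05% of all genes kept. The lower ones, named after their values were seen, had few reads. SPINT1, the gene of the matriptase inhibitor HAI-1, had 24 and 2 reads against 24 and was lower in SIRT7-KO (log2 ratio -3.07, -6.46 to -1.32). TMPRSS4, a related protease, had 8 and 10 reads against 30 and was lower in both (log2 ratios -1.61, -3.00 to -0.51, and -1.29, -2.53 to -0.26). The most abundant partner, the protease-activated receptor gene F2RL1, had 70 and 114 reads against 74 (0.16, and 0.87 with an interval of 0.44 to 1.32 in SIRT7-KO), short of the rule.

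Connexin genes of the list were barely read. GJA1, the gene of connexin 43, was at 0 in all libraries. GJB2, connexin 26, had 6 reads in USP39-KO and 0 in SIRT7-KO, against 7 in the control.

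Factors that control epithelial genes were read beside the members. SNAI1, a zinc finger repressor of E-cadherin, had 606 reads in USP39-KO and 1029 in SIRT7-KO, against 523 in the control. It was higher in SIRT7-KO (log2 ratio 1.23, 1.07 to 1.38) and had 0.45 in USP39-KO. The related repressors SNAI2, ZEB1, ZEB2, TWIST1 and TWIST2, named after their values were seen, did not pass the rule in either knockout. In that order, their log2 ratios in SIRT7-KO were -0.37, -0.01, 0.08, 0.29 and -0.02. Those in USP39-KO were 0.29, -0.18, 0.77, 0.36 and -0.16. KLF5, an activator of many epithelial genes, had 1681 and 1060 reads against 5280 and was lower in both (log2 ratios -1.41, -1.49 to -1.33, and -2.06, -2.16 to -1.97). The most abundant regulator, KLF4, had 0.59 and 0.00. GRHL1 had 136 and 274 reads against 173 (-0.11, and 0.91 with an interval of 0.64 to 1.2 in SIRT7-KO), short of the rule. Of all genes kept, 1.49% were higher and 3.37% lower in USP39-KO, and 3.02% and 4.05% in SIRT7-KO. Over the 13 regulators measured, 1 was higher and 1 lower in USP39-KO, and 2 were higher and 1 lower in SIRT7-KO. Beside SNAI1 and KLF5 these counts hold OVOL1, named after its values were seen, with 25 and 16 reads against 5 in the control. Whether any of them bears on the members' levels was not tested.

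**Figure D4:**
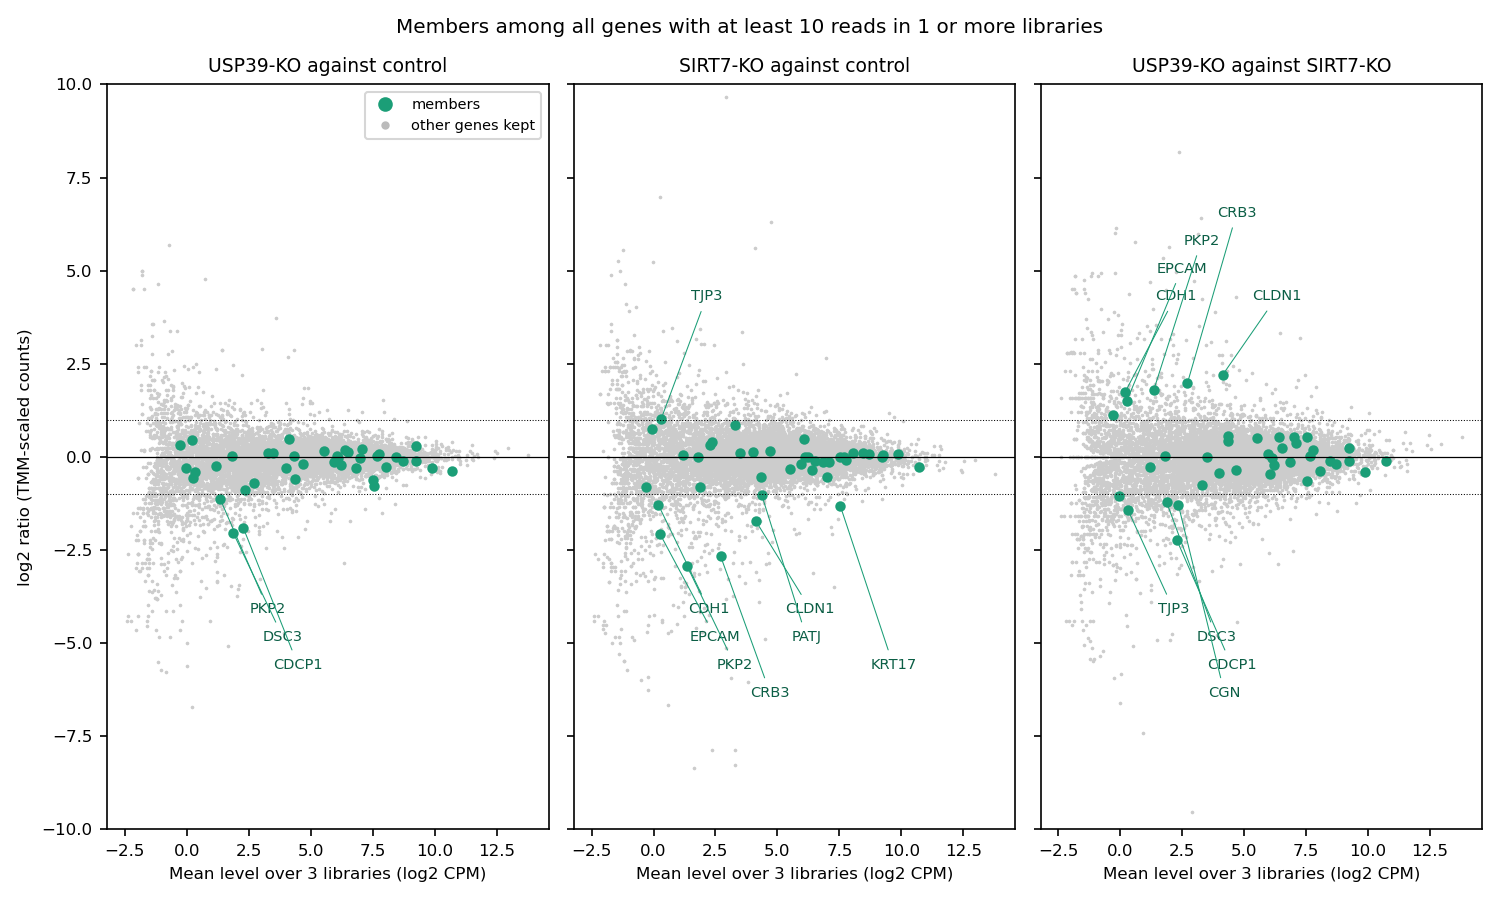
Each gene's log2 ratio against its mean level over the 3 libraries, for all 12726 genes kept (grey) and the 40 members (green), in each comparison, with members past the size rule named. Members lower in SIRT7-KO range from CDH1, with 8 to 28 reads per library, to KRT17, with 1835 to 5483.

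The knockouts were also compared with each other. USP39-KO was higher than SIRT7-KO in 5 members and lower in 4, or 12.5% and 10% of the 40, against 3.51% and 5.03% of all 12726 genes kept. Since the list was drawn up with earlier results of these data known, these shares too test no excess. The 5 higher in USP39-KO were CLDN1 (4.58-fold, log2 ratio 2.19, 1.88 to 2.53), CRB3 (3.91-fold, 1.97, 1.38 to 2.64), PKP2 (1.79, 0.80 to 3.01), CDH1 (1.73, 0.62 to 3.14) and EPCAM (1.51, 0.28 to 3.05). The SIRT7-KO library also enters its comparison with the control, so these ratios and those are not independent. The 4 lower in USP39-KO were CDCP1 (4.73-fold, log2 ratio -2.24, -2.95 to -1.63), TJP3 (-1.43, -2.56 to -0.48), CGN (-1.29, -1.82 to -0.80) and DSC3 (-1.22, -1.99 to -0.52). PATJ and KRT17, with 0.42 and 0.54, did not differ by the rule between the knockouts. The median over the 40 members was -0.01, against 0.00 over all genes. Outside the list, PRKCZ was higher in USP39-KO than in SIRT7-KO (log2 ratio 1.14, 0.94 to 1.35), and ITGB4 (-1.09, -1.26 to -0.93) and INA (-1.79, -2.06 to -1.54) were lower. Also lower in USP39-KO were ARVCF, a p120-related catenin (82 reads, against 179 in SIRT7-KO; -1.13, -1.53 to -0.75), and CTNNBIP1, an inhibitor of beta-catenin (69 against 146; -1.09, -1.53 to -0.67). The epithelial regulator GRHL1 had 136 reads in USP39-KO, against 274 in SIRT7-KO (-1.02, -1.33 to -0.72). In the control ARVCF and CTNNBIP1 each had 114 reads and GRHL1 had 173. Against the control, ARVCF, CTNNBIP1 and GRHL1 had log2 ratios of -0.23, -0.48 and -0.11 in USP39-KO. They had 0.90, 0.61 and 0.91 in SIRT7-KO, and none passed the rule in either.

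The members past the rule were mostly of low or middling abundance, which bears on how firm the counts are. Of the 7 lower in SIRT7-KO, CLDN1, CRB3, PATJ and KRT17 had at least 100 reads in a library, while CDH1, EPCAM and PKP2 did not. Of the 3 lower in USP39-KO, DSC3 and CDCP1 did. Some reached 100 reads only outside the library in which they were lower, so that mark does not make their calls firmer. In SIRT7-KO itself CRB3 had 28 reads and CLDN1 had 96, and in USP39-KO itself DSC3 had 24 and CDCP1 had 25. In bulk RNA, fewer cells with a transcript and less of it per cell cannot be told apart.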

How the data were processed

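Per the labels' protocols, total RNA was taken up in Trizol and sequenced after TruSeq library preparation. The authors deposited 1 table with a length, raw read counts and FPKM per gene and library, per the file headers. The sources used here do not give the aligner, counting program, strand setting, genome build or annotation. The deposited FPKM equal counts per listed length and library total in every gene with reads (relative tolerance 1e-06) and were used for levels between genes. Symbols and coordinates came from a table of gene names and from GENCODE 29.

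Counts were scaled with TMM factors (edgeR 4.0.16; 0.9896, 1.0104 and 1.0000 for USP39-KO, SIRT7-KO and control). Log2 ratios had a prior of 0.5 counts, adjusted for library size, and intervals were Clopper-Pearson (scipy 1.17.1). Intervals and floors cover counting error only, since reads counted without molecular identifiers need not be independent. The floor of 3 counts for a listed 0 equals 0.182, 0.184 and 0.154 CPM in USP39-KO, SIRT7-KO and the control. The filter of 10 counts in some library kept 12726 genes. No dispersion can be estimated from 1 library per group, so no model was fitted. The steps were tested on simulated counts with counting error only, and changes were set only in genes with at least 100 expected control reads. That test does not cover variation between replicates or calls on few reads. Members, lists and rules were chosen with earlier results of these data known. Full values are given for members past the size rule and the most abundant member of each group, and outside the list for genes past the rule with at least 100 reads and the most abundant one. Alternatives were DESeq2 1.42.0 size factors, library totals, no filter, a filter of 100 counts, a prior of 2 counts and a 1.5-fold rule. Further gap junction genes are not reported here.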

Additional observations from a re-analysis of the deposited data

How the results depend on the processing

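Each log2 ratio and count was recomputed under 6 alternatives. No paired analysis was possible because each group has 1 library, and for that reason no library could be left out. DESeq2 size factors moved the median log2 ratio of all genes by at most 0.009 and library totals by at most 0.03, and no called member changed sign under any alternative. Library totals ended the call of PATJ in SIRT7-KO and added KRT15 in USP39-KO against SIRT7-KO; a prior of 2 counts ended that of TJP3, leaving 0 members higher in SIRT7-KO. With the filter of 100 counts, SIRT7-KO had 0 members higher and 4 lower against control, and USP39-KO had 2 higher than SIRT7-KO; that filter leaves 32 members to count. All genes higher and lower then numbered 48 and 126 in USP39-KO against control, 136 and 210 in SIRT7-KO against control, and 221 and 281 in USP39-KO against SIRT7-KO. No share of all genes is given under this filter, so these counts cannot be set against those of the 32 members. A gene passes this filter through any library, which can be the one where it has most reads. The 1.5-fold rule gave 8 members lower in USP39-KO (adding CGN, CRB3, PATJ, PPL and KRT17) and 2 higher in SIRT7-KO (adding F11R). Over all 12726 genes kept, that rule gave 406 higher and 814 lower, 917 and 997, and 1006 and 1316, in the same order of comparisons. The other counts of members stayed within 1.5 times. Depth limits CDH1, CDH3, EPCAM, TJP3, JUP, PKP2, KRT15 and KRT81, whose intervals span over 1 log2 unit in each comparison with the control.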

Other observations

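Neighbouring genes gave further values. CDH3 and CDH1 lie 14608 bases apart on chromosome 16 (GENCODE 29), and both had 8 reads in SIRT7-KO, against 17 and 24 in the control. DSC3 and DSC2 lie 16024 bases apart on chromosome 18, and in USP39-KO DSC3 had a log2 ratio of -2.04 while DSC2 had 0.02. KRT18 and KRT8 overlap by 1084 bases on opposite strands, and reads there cannot be told apart without strand. Other members overlap neighbours too, such as CLDN12, which shares 7735 bases with GTPBP10 on the same strand. PALS1 shares 41449 bases with ATP6V1D on the opposite strand. The part of GTPBP10 and ATP6V1D in the CLDN12 and PALS1 counts was not tested. These neighbours were looked at after the members' values were seen.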
